A study of Homo sapiens with 12 samples.

Results

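Collagen genes are the protein-coding genes whose symbol is COL, a type number, A and a chain number. Ensembl gene IDs were matched to symbols through GENCODE, and 44 of the 60675 IDs in the table met this rule. They fell into 11 fibrillar collagens, 8 basement membrane collagens and 25 other collagens. RNA was sequenced from SW1783, a human astrocytoma cell line, kept for 24 h in medium with vehicle (PBS with 2% DMSO) or with Aconitum carmichaeli Debeaux (ACD) extracted in water. The extract was given at 20 µg/mL (low dose), 100 µg/mL (medium dose) and 500 µg/mL (high dose), and each of the 4 groups had 3 libraries. The name of the extract follows the titles and treatment labels; a protocol text filed with the samples describes another herb. All libraries came from this single line in culture, no label says that the replicates were separate cultures, and p-values therefore measure the spread between these libraries.

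Collagens are secreted or membrane proteins built from chains that wind into a triple helix. Fibrillar collagens (types I, II, III, V, XI, XXIV and XXVII) assemble into the banded fibrils of connective tissue, and type IV collagen forms the network of basement membranes. Other classes bind to fibrils, form beaded filaments beside the cell, anchor epithelia or span the cell membrane. Normal brain tissue holds little fibrillar collagen outside its vessels and meninges, whereas cultured glioma lines often express it. Making collagen needs chaperones and hydroxylases in the endoplasmic reticulum, enlarged transport carriers, propeptide cleavage outside the cell and crosslinking by lysyl oxidases.

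Library totals lay between 18863863 and 24200576 counts. At this depth 24 collagen genes had a mean normalised count (count divided by the DESeq2 size factor) of at least 100, a further 6 lay between 10 and 100, and 14 were under 10. The labelled cell type was checked against markers. Of 8 astrocyte markers, GFAP had a vehicle mean of 2.79 normalised counts and AQP4 was at 0 in every library, while SLC1A3, GJA1 and SOX9 had vehicle means of 690.1, 4914 and 1434. The vehicle mean summed over all 8 was 7051, to which S100B, ALDH1L1 and SLC1A2 added little. The cells are therefore described below by the name of the line. In bulk RNA, fewer cells of a type and less RNA per cell cannot be told apart.

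Collagen transcripts were lower at the high dose, and the fibrillar class carried most of the loss. Genes were called differentially expressed (DEGs) when the DESeq2 Wald test gave a Benjamini-Hochberg adjusted p under 0.05 and expression differed by more than 1.5-fold in either direction. At the high dose 34 collagen genes had an adjusted p, of which 9 were DEGs with lower and 1 with higher expression, against 9.57% lower and 8.66% higher among all genes tested and 18.2% in either direction. By adjusted p alone 19 were lower and 3 were higher, where 22.6% and 23.9% of all genes were (46.5% in all). The median log2 fold change over the 34 genes was -0.41, and over all genes tested it was -0.01. By class, 5 of 10 tested fibrillar genes were DEGs and all 5 were lower, 1 of 8 tested basement membrane genes was a higher DEG, and 4 of 16 other tested genes were lower DEGs. The median log2 fold change was -1.35 for the fibrillar, -0.28 for the basement membrane and -0.46 for the other tested genes.

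**Figure D1:**
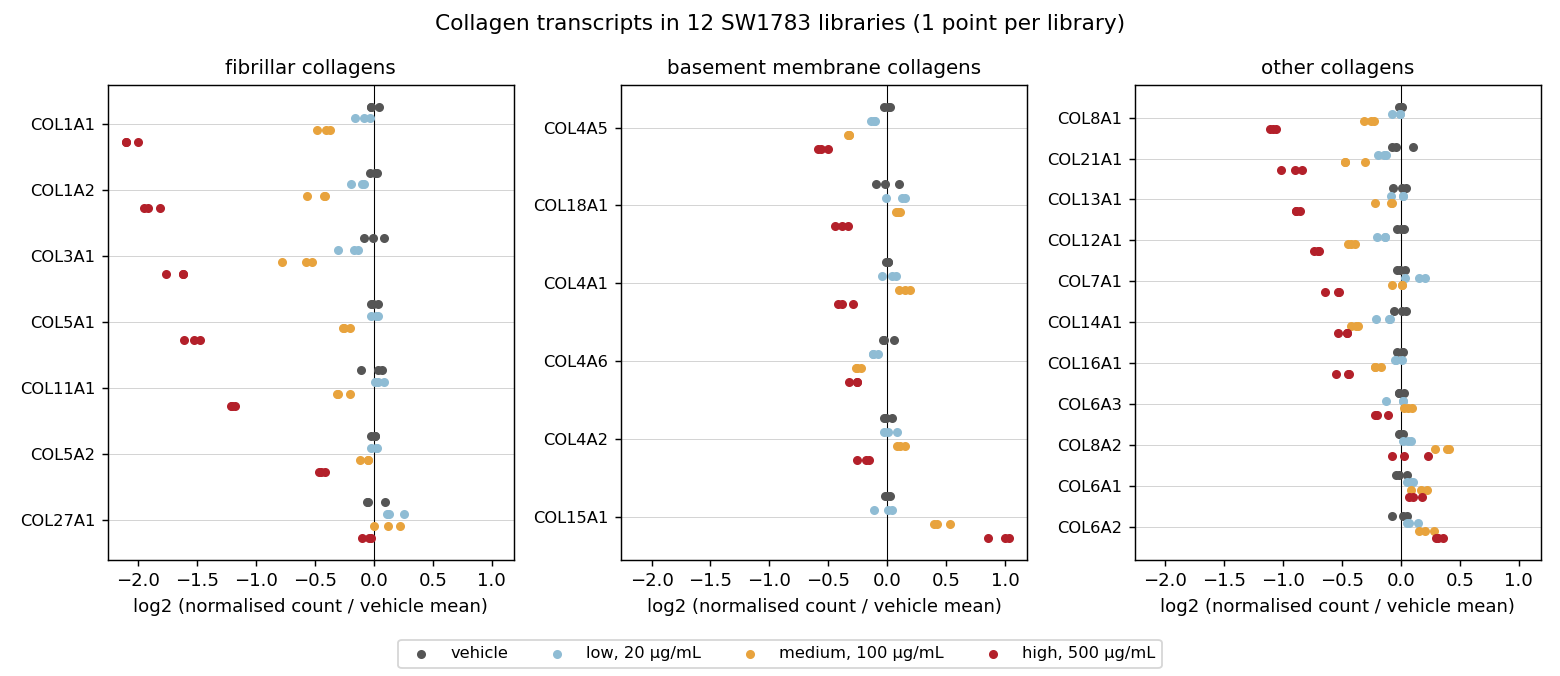
The 24 collagen genes whose mean normalised count reached 100, with 1 point per library: the x axis gives the log2 ratio of the normalised count to the vehicle mean, and colours give the dose. The high dose points of COL1A1, COL1A2, COL3A1, COL5A1 and COL11A1 lie furthest to the left, and those of COL15A1 lie to the right.

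Type I collagen, the main fibril protein of bone, skin and tendon, showed the largest fall. COL1A1 (ENSG00000108821, chromosome 17, 50184101 to 50201632, minus strand), which encodes its alpha-1 chain, read 68223, 71542 and 68185 in the vehicle libraries, 67999, 65415 and 62097 with the low dose, 52459, 53685 and 49632 with the medium dose and 17349, 16161 and 16168 with the high dose. The groups followed the dose with no overlap, each dose group lying below every library of the next lower dose. The fall from 69316 ± 1927 to 16559 ± 684 (SD, n = 3) was 4.19-fold, a log2 fold change of -2.07 (SE 0.0355, adjusted p below the smallest number DESeq2 can write). At the medium dose the log2 fold change was -0.42 (adjusted p = 1.31e-30) and at the low dose -0.09 (adjusted p = 0.17); without low replicate 1 the low dose value passed (adjusted p = 0.0252).

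COL1A2 (ENSG00000164692, chromosome 7, 94394895 to 94431227, plus strand) encodes the alpha-2 chain of the same helix. Its normalised counts were 44509, 43958 and 42743 in the vehicle libraries, 41419, 40743 and 38277 with the low dose, 32932, 32582 and 29609 with the medium dose and 12425, 11595 and 11301 with the high dose. As for COL1A1, the 4 groups were ordered by dose and none of them overlapped. The log2 fold change was -1.89 at the high dose (SE 0.0522, adjusted p = 2.12e-285), or 3.72-fold lower, -0.46 at the medium dose (adjusted p = 1.61e-17) and -0.12 at the low dose (adjusted p = 0.215). The low dose value passed with the compared groups fitted alone (adjusted p = 0.00176) and without medium replicate 3 (adjusted p = 0.00566) or high replicate 1 (0.0168).

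Type V collagen forms fibrils together with type I and limits their diameter, and its alpha-1 and alpha-2 genes moved by unequal amounts. COL5A1 (ENSG00000130635, chromosome 9, 134641803 to 134844843, plus strand) had 43778, 45606 and 44246 in the vehicle libraries, 45134, 45609.6 and 43924 with the low dose, 37373, 38687 and 37244 with the medium dose and 16039.5, 14582 and 15495 with the high dose. Low dose and vehicle libraries overlapped, while the medium and high dose libraries each lay apart. The log2 fold change was -1.54 at the high dose (SE 0.0297, adjusted p below the smallest number DESeq2 can write), or 2.9-fold lower, and -0.24 at the medium dose (adjusted p = 1.31e-14). COL5A2, on chromosome 2, had 7689, 7665 and 7528 in the vehicle libraries, 7794, 7728 and 7507 with the low dose, 7362, 7358 and 7029.6 with the medium dose and 5715, 5515 and 5580.2 with the high dose. The medium dose libraries lay just below the vehicle and low dose libraries and the high dose libraries lay further down, and the fall was smaller than that of COL5A1, with a log2 fold change of -0.45 (adjusted p = 7.13e-53). At the medium dose COL5A2 changed by -0.07 (adjusted p = 0.0338), a call that was lost with the compared groups fitted alone (adjusted p = 0.0584) and when vehicle replicate 1 (0.135), vehicle replicate 2 (0.133), low replicate 2 (0.0501), medium replicate 2 (0.0686), medium replicate 3 (0.257) or high replicate 3 (0.0524) was left out.

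COL3A1 (ENSG00000168542, chromosome 2, 188974373 to 189012746, plus strand), the single chain of type III collagen in vessel walls and skin, read 1282, 1368 and 1222 in the vehicle libraries, 1174, 1149.5 and 1046 with the low dose, 867, 898 and 752 with the medium dose and 420.2, 422 and 381 with the high dose. All 4 groups were again in the order of dose without overlap, although the low dose did not pass the test (log2 fold change -0.20, adjusted p = 0.118). COL3A1 was 3.17-fold lower at the high dose, with a log2 fold change of -1.67 (SE 0.0802, adjusted p = 5.16e-94). COL3A1 was the only collagen DEG at the medium dose, where its log2 fold change of -0.62 (adjusted p = 2.74e-15) lay just past the fold threshold of 0.585 on the log2 scale. Without vehicle replicate 2 it was -0.58 and without medium replicate 3 it was -0.55, both short of that threshold.

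COL11A1 (ENSG00000060718, chromosome 1, 102876467 to 103108872, minus strand) encodes a chain of type XI collagen, the counterpart of type V in cartilage fibrils. It had 742, 728 and 656 in the vehicle libraries, 715, 751 and 726 with the low dose, 573, 618 and 572 with the medium dose and 313, 305 and 309 with the high dose. Vehicle and low dose libraries were interleaved and the high dose libraries lay within a narrow band far below them. The log2 fold change was -1.20 at the high dose (SE 0.0825, adjusted p = 1.83e-46), or 2.3-fold lower, and -0.27 at the medium dose (adjusted p = 0.00232). COL27A1, a fibrillar chain known from cartilage, did not pass the test at any dose. Its counts were 282, 284 and 313 in the vehicle libraries, 321, 317 and 349 with the low dose, 293, 318 and 342 with the medium dose and 273, 285 and 288 with the high dose, and the 3 doses differed from vehicle by 0.17, 0.12 and -0.05 on the log2 scale in rising order of dose.

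The remaining fibrillar genes were scarce. COL5A3 lay between 25.1 and 45.2 normalised counts over the 12 libraries, and its high dose log2 fold change was -0.08 (adjusted p = 0.882). Raw counts of COL11A2 were between 4 and 17, those of COL24A1 between 2 and 9, and COL2A1, the cartilage collagen, had at most 1 count in any library. No difference in these 3 genes was detectable at this depth.

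Where the RefSeq promoter table held an entry, the 250 bases before each listed transcription start were searched on both strands. The search was for 4 short motifs known from collagen and other promoters. A gene with several windows counted as holding a motif if any of its windows did. These were CCAAT (the CCAAT box), GGGCGG (the GC box), TATAAA (the TATA box) and CAGACA (a SMAD box), and none of them contains another. Of the 24 collagen genes with a mean of at least 100, 17 had an entry; COL1A1, COL1A2, COL3A1, COL5A2, COL6A1, COL8A1 and COL14A1 had none. The windows of COL5A1 and COL11A1, fibrillar genes with lower expression, and of COL6A2, which was higher, are given 5′ to 3′ on the strand of the gene (GRCh38.p14), with motifs in capitals.
COL5A1 chr9:134641553-134641802 plus strand: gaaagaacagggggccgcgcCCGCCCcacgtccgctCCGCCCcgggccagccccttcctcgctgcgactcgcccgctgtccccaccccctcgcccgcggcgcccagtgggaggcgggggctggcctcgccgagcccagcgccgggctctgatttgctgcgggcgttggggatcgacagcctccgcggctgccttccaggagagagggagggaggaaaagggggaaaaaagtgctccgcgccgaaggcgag
COL11A1 chr1:103108523-103108772 minus strand: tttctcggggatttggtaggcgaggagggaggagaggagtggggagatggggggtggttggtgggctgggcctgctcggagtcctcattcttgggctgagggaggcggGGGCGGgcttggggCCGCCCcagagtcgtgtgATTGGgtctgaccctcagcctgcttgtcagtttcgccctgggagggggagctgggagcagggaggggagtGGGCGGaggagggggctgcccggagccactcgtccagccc
COL6A2 chr21:46097862-46098111 plus strand: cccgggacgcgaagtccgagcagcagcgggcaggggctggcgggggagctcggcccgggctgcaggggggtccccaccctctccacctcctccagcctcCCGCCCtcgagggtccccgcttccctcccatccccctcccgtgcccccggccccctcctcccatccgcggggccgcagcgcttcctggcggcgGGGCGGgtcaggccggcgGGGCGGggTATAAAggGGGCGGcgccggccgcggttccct
COL5A1 had 2 windows, of which the first listed is printed. None of the bases in the 3 printed windows lies in an exon of the GENCODE annotation. The COL11A1 window precedes the RefSeq start but lies within the gene as GENCODE gives it, downstream of an earlier start. The COL5A1 window holds 2 GC boxes, that of COL11A1 3 GC boxes and 1 CCAAT box, and that of COL6A2 4 GC boxes and 1 TATA box. A GC box was present in 14 of the 17 collagen genes and in 46.2% of 27305 genes with a window, a CCAAT box in 5 of 17 and 37.0%, a TATA box in 4 of 17 and 13.0%, and a SMAD box in 2 of 17 and 16.3%. Among the 5 lower DEGs with an entry, 4 held a GC box, 1 a CCAAT box, 1 a TATA box and none a SMAD box. Among the other 12 collagen genes with an entry these numbers were 10, 4, 3 and 2, and a difference between the sets was not tested. A motif match is a run of letters and does not show that a factor binds.

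Among basement membrane collagens the changes ran in both directions and were smaller. COL4A1 (ENSG00000187498, chromosome 13, 110148963 to 110307157, minus strand) and COL4A2 (ENSG00000134871, chromosome 13, 110305812 to 110513209, plus strand) encode the chains of the most widespread type IV collagen. They lie head to head on chromosome 13, and the RefSeq starts are 126 bases apart. That stretch, in which 26 bases lie in exons of the GENCODE annotation, holds 1 CCAAT box and 1 GC box.
COL4A1-COL4A2 chr13:110307158-110307283 plus strand: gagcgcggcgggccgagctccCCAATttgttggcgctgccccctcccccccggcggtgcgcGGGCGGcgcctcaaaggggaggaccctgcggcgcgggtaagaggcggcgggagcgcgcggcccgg
COL4A1 had 6603, 6684 and 6712 in the vehicle libraries, 7019, 6853 and 6473 with the low dose, 7410.3, 7638 and 7161 with the medium dose and 5463, 5001 and 5111 with the high dose. The medium dose libraries were the highest and the high dose libraries the lowest of the 4 groups. Its log2 fold change was 0.15 at the medium dose (adjusted p = 0.000306) and -0.36 with the high dose (adjusted p = 2.98e-21), and between these doses it was -0.51 (adjusted p = 9.99e-42). COL4A2 followed the same course, with 13444, 13573 and 14101 in the vehicle libraries, 14499.7, 13807 and 13472 with the low dose, 14757, 15248 and 14542 with the medium dose and 12342, 11485 and 12109.7 with the high dose. It was higher at the medium dose by a log2 fold change of 0.12 (adjusted p = 0.0022) and lower at the high dose by -0.19 (adjusted p = 1.2e-08), neither of which reached the fold threshold.

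COL4A5 and COL4A6, which also lie head to head, 340 bases apart on chromosome X, encode type IV chains of kidney, smooth muscle and epithelial basement membranes. COL4A5 had 3628, 3675 and 3557 in the vehicle libraries, 3362, 3299 and 3342 with the low dose, 2897, 2876 and 2889 with the medium dose and 2553, 2457 and 2407 with the high dose. Every group lay below the group with the next lower dose. In rising order of dose its log2 fold changes were -0.12 (adjusted p = 0.0225), -0.33 (adjusted p = 4.2e-19) and -0.55 (adjusted p = 3.97e-53). The low dose call was lost with the compared groups fitted alone (adjusted p = 0.0584) and without vehicle replicate 1 (0.162), vehicle replicate 2 (0.238), low replicate 1 (0.0628), low replicate 2 (0.131), low replicate 3 (0.113) or medium replicate 2 (0.0511). COL4A6 read 2344, 2354 and 2499 in the vehicle libraries, 2273, 2210.3 and 2207 with the low dose, 2009.9, 2062 and 1992 with the medium dose and 2006, 1919.9 and 2006 with the high dose. Its medium and high dose libraries overlapped, at log2 fold changes of -0.25 (adjusted p = 1.11e-07) and -0.28 (adjusted p = 3.4e-10).

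COL15A1 (ENSG00000204291, chromosome 9, 98943179 to 99070792, plus strand) was the single collagen DEG with higher expression. It encodes a collagen that carries chondroitin sulfate chains and links basement membranes to the fibrils beneath them. Its counts were 275, 272 and 280.0 in the vehicle libraries, 283, 277 and 254 with the low dose, 362, 398 and 369 with the medium dose and 498, 562 and 552 with the high dose. The medium dose libraries lay above every vehicle and low dose library, and the high dose libraries lay above those. The log2 fold change was 0.45 at the medium dose (adjusted p = 4.43e-05) and 0.97 with the high dose (SE 0.0958, adjusted p = 6.72e-23), or 1.96-fold higher. COL18A1, the related collagen from which endostatin is cleaved, had 1682, 1773 and 1926 in the vehicle libraries, 1960.2, 1995 and 1779 with the low dose, 1887, 1930.1 and 1915 with the medium dose and 1376, 1319.9 and 1425 with the high dose. It was lower at the high dose, with a log2 fold change of -0.38 (adjusted p = 9.33e-11), and 18.5% of its exon bases overlap SLC19A1 on the opposite strand, so its reads are uncertain if strand was not used in counting. COL4A3 and COL4A4, the other kidney chains, lay between 4.66 and 22.1 normalised counts, with log2 fold changes at the high dose of 0.28 (adjusted p = 0.74) and -0.27 (adjusted p = 0.636).

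Type VI collagen, which forms beaded filaments close to the cell surface, moved in the opposite direction to the fibrillar genes in its alpha-1 and alpha-2 chains. COL6A1 (ENSG00000142156, chromosome 21, 45981770 to 46005050, plus strand) had 32994, 33647 and 35282 in the vehicle libraries, 36086, 36428 and 35318 with the low dose, 36019, 39724 and 38349 with the medium dose and 35601, 36592 and 38457 with the high dose. The 3 dose groups overlapped one another and all lay above the vehicle libraries. The log2 fold change was 0.16 at the medium dose (adjusted p = 1.93e-05) and 0.12 with the high dose (adjusted p = 0.0015). At the low dose it was 0.08 and did not pass (adjusted p = 0.216). COL6A2 (ENSG00000142173, chromosome 21, 46098112 to 46132848, plus strand) had 22119, 23622 and 24174 in the vehicle libraries, 24157, 25858 and 24535 with the low dose, 25989, 28350.3 and 26868 with the medium dose and 29020.4, 28653 and 29839 with the high dose. All high dose libraries exceeded every other library, at a log2 fold change of 0.32 (adjusted p = 3.12e-19), and the medium dose gave 0.22 (adjusted p = 1.45e-08). COL6A3, which encodes the long alpha-3 chain, had 5719.9, 5565 and 5537 in the vehicle libraries, 5698, 5680.4 and 5129 with the low dose, 5852, 5999 and 5715 with the medium dose and 5193, 4884 and 4823 with the high dose. It was lower at the high dose, with a log2 fold change of -0.18 (adjusted p = 4.03e-05), and its medium dose value of 0.06 did not pass (adjusted p = 0.245). None of the 3 genes reached the fold threshold. COL6A6 had 6 to 16 counts and COL6A5 at most 1.

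Of the collagens that attach to fibrils through interrupted helices, the 4 with a mean of at least 100 were lower at the high dose, while COL9A2, at 4.19 to 15.9 normalised counts, did not pass the test (0.04, adjusted p = 0.959). COL12A1 (ENSG00000111799, chromosome 6, 75084326 to 75206267, minus strand), a large surface component of type I fibrils, had 13118, 12919.9 and 12558 in the vehicle libraries, 11708, 11755 and 11214 with the low dose, 9592, 9804 and 9463 with the medium dose and 7916, 7939 and 7715 with the high dose. The 4 groups were ordered by dose without overlap. It was lower at every dose, with log2 fold changes of -0.15 (adjusted p = 1.67e-06), -0.42 (adjusted p = 2.74e-52) and -0.71 (adjusted p = 3.09e-148) in rising order of dose, and it was the DEG with the smallest change at the high dose. COL14A1, a close relative, had 906, 843 and 885 in the vehicle libraries, 824, 820.1 and 758 with the low dose, 683, 676 and 655 with the medium dose and 640.2, 605 and 641 with the high dose. Its log2 fold change was -0.39 at the medium dose (adjusted p = 1.61e-07) and -0.48 with the high dose (adjusted p = 9.71e-12). COL16A1 had 1256, 1259 and 1219 in the vehicle libraries, 1210.0, 1255 and 1200.2 with the low dose, 1110.5, 1069.9 and 1069.5 with the medium dose and 915, 849 and 918 with the high dose. Its medium and high dose groups were separate, at -0.20 (adjusted p = 0.00166) and -0.48 (adjusted p = 1.41e-16). COL21A1, the rarest of these collagens among those with a mean of at least 100, had 234, 258 and 228 in the vehicle libraries, 220.3, 210.1 and 218 with the low dose, 173, 195 and 173 with the medium dose and 134, 129 and 119 with the high dose. It was a DEG at the high dose with a log2 fold change of -0.92 (adjusted p = 2.94e-11), and the medium dose value of -0.41 (adjusted p = 0.00601) lost its call without vehicle replicate 2 (0.0801) or medium replicate 3 (0.0540).

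Of the network, anchoring and membrane collagens, COL8A1 changed most. COL8A1 (ENSG00000144810, chromosome 3, 99638475 to 99799226, plus strand), a short-chain collagen of vessel walls, had 3752, 3728 and 3673 in the vehicle libraries, 3709, 3712 and 3542 with the low dose, 3171, 3118 and 3003 with the medium dose and 1782, 1728 and 1755 with the high dose. The high dose libraries lay far below the rest and the fold was 2.12 (-1.08 on the log2 scale, SE 0.0384, adjusted p = 3.66e-173). Its partner chain gene COL8A2 had 149, 148 and 152 in the vehicle libraries, 156, 159 and 152 with the low dose, 183, 199 and 196 with the medium dose and 142, 152 and 176 with the high dose. High dose COL8A2 did not pass the test (0.07, adjusted p = 0.719), while the medium dose value of 0.37 did (adjusted p = 0.0291). That medium dose call was lost with the compared groups fitted alone (adjusted p = 0.0511) and without any 1 of the vehicle or medium dose libraries: vehicle replicates 1 to 3 gave adjusted p of 0.0979, 0.111 and 0.0769, and medium replicates 1 to 3 gave 0.0524, 0.164 and 0.117.

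COL13A1 (ENSG00000197467, chromosome 10, 69801880 to 69964275, plus strand), a collagen that spans the cell membrane, had 318, 336 and 343 in the vehicle libraries, 315, 338 and 337 with the low dose, 316, 314 and 286 with the medium dose and 184, 179 and 179.6 with the high dose. The low dose libraries overlapped both the vehicle and the medium dose libraries, and the high dose libraries were far below. The log2 fold change was -0.88 at the high dose (adjusted p = 8.93e-15) and -0.12 at the medium dose (adjusted p = 0.401). COL7A1, the anchoring fibril collagen of skin, had 4389.8, 4617 and 4489 in the vehicle libraries, 4605, 5003 and 5174 with the low dose, 4263, 4521 and 4520.2 with the medium dose and 2881, 3108 and 3121 with the high dose. It was lower at the high dose, at -0.57 on the log2 scale (adjusted p = 6.04e-36), just short of the fold threshold, and the medium dose gave -0.02 (adjusted p = 0.784). COL17A1, the hemidesmosome collagen, lay between 23.4 and 39.4 normalised counts. In the whole class of other collagens, the 11 genes under a mean of 10, COL6A5 among them, had between 0 and 9 counts in any library, and COL9A1 was at 0 in all 12. A count of 0 allows up to 3 counts in a library, for counting error only.

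The doses at which collagen genes were called differed, and a difference in onset between genes was not tested. At the low dose no collagen gene was a DEG by DESeq2 or by edgeR (0.118% of 9304 genes tested were). COL12A1 and COL4A5 passed the adjusted p alone, 2 of 22 with an adjusted p against 3.29% of all genes tested, and 10 of 43 with a p had an unadjusted p under 0.05, against 5.01% of all genes with a p. At the medium dose 1 of 26 was a DEG against a background of 3.81%. By adjusted p alone 13 were lower and 6 were higher, against 14.5% and 15.1% of all genes (29.5% in all); the 6 were COL4A1, COL4A2, COL6A1, COL6A2, COL8A2 and COL15A1. Between the low and the medium dose no collagen gene was a DEG by either tool, where 1.94% of all genes were, although 21 of 43 had an unadjusted p under 0.05, against 13.4%, and 17 of 26 passed the adjusted p alone, against 18.9%. Between the medium and the high dose 7 of 31 were DEGs, all lower, against 5.61% lower and 10.2% in either direction among all genes; 19 passed the adjusted p alone, against 40.9%. The 7 were COL1A1 (-1.65), COL1A2 (-1.43), COL5A1 (-1.30), COL3A1 (-1.04), COL11A1 (-0.93), COL8A1 (-0.82) and COL13A1 (-0.75), with log2 fold changes in parentheses. The comparisons with vehicle share the vehicle libraries. A likelihood ratio test over the 4 groups called 22 of 34 collagen genes, against 45.8% of all genes tested, and of the 24 genes with a mean of at least 100 only COL27A1 and COL8A2 were not among the 22.

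All collagen genes together took 1.40% ± 0.0212 (SD, n = 3) of the counts in vehicle libraries, 1.34% ± 0.0309 with the low, 1.15% ± 0.0264 with the medium and 0.729% ± 0.00922 with the high dose. Most of the loss was in the fibrillar class, whose share went from 0.828% ± 0.019 in vehicle to 0.230% ± 0.00844 at the high dose. Basement membrane collagens went from 0.141% ± 0.00258 to 0.108% ± 0.00303, and other collagens from 0.429% ± 0.00862 to 0.391% ± 0.00764. Fibrillar genes thus made up 59.2% of collagen counts in vehicle, 57.6% with the low, 52.1% with the medium and 31.5% with the high dose. In normalised counts the sum over collagen genes was 282937 in vehicle and 159626 at the high dose. COL1A1 alone gave 39.9% of the summed losses, and COL1A1, COL1A2 and COL5A1 together gave 86.0%. Mitochondrial rRNA genes moved over the same libraries, from 0.932% ± 0.0251 of counts in vehicle to 3.14% ± 0.164, 7.83% ± 0.199 and 5.93% ± 0.15 with rising dose, and its part in the share was not tested. Outside mitochondrial genes the collagen share was 1.47% in vehicle and 0.802% at the high dose.

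**Figure D2:**
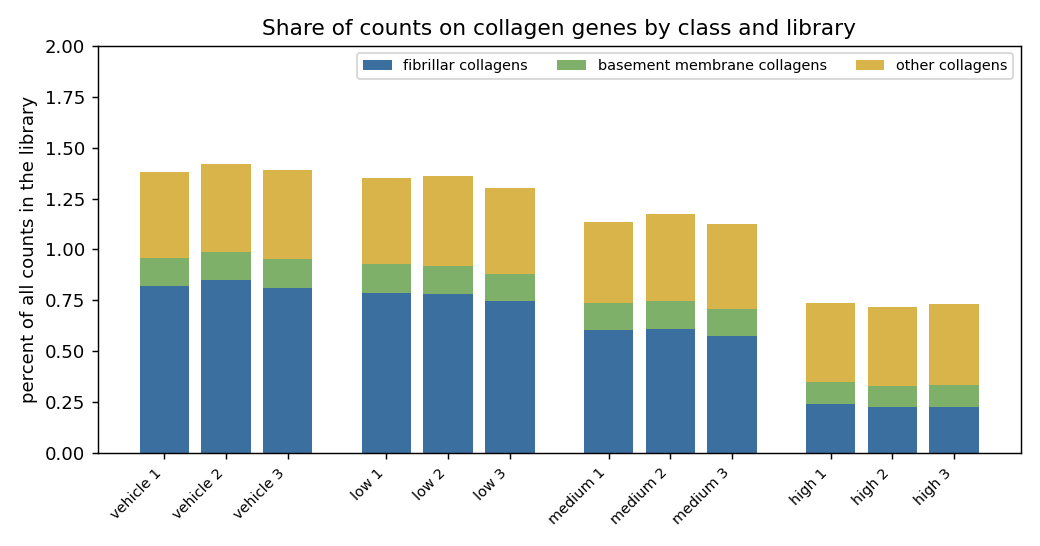
Stacked bars give the percent of each library's counts on fibrillar, basement membrane and other collagen genes, with 1 bar per library in 4 groups. The fibrillar part shrinks from 0.828% in vehicle to 0.230% at the high dose, while the group means of the other collagens lie between 0.391% and 0.430%.

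Levels of different genes were compared per kilobase of exon. In vehicle COL1A1 ranked first at 7696 ± 214 normalised counts per kb (SD, n = 3), before COL6A1 at 6137 ± 213, COL6A2 at 4369 ± 199, COL1A2 at 4045 ± 83.6 and COL5A1 at 3991 ± 85.0. The ranges of COL1A2 and COL5A1 overlapped, so their order was not resolved, and the next gene, COL5A2, lay at 1042 ± 11.9. At the medium dose COL6A1 (6870 ± 338) was above COL1A1 (5765 ± 231). At the high dose COL6A1 (6662 ± 262) and COL6A2 (5469 ± 114) led, and COL1A1 (1838 ± 75.9), COL5A1 (1377 ± 66.0) and COL1A2 (1089 ± 53.9) followed. COL1A1, which ranked above COL6A1 and COL6A2 in vehicle, was thus below both at the high dose. Levels and order depend on the length used. With the longest coding transcript COL1A1 (11721), COL1A2 (8623), COL6A1 (8083), COL6A2 (6765) and COL5A1 (5276) led in vehicle, so that COL1A2 stood above COL6A1 and COL6A2, and COL6A1 (8775) and COL6A2 (8468) again led at the high dose.

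**Figure D3:**
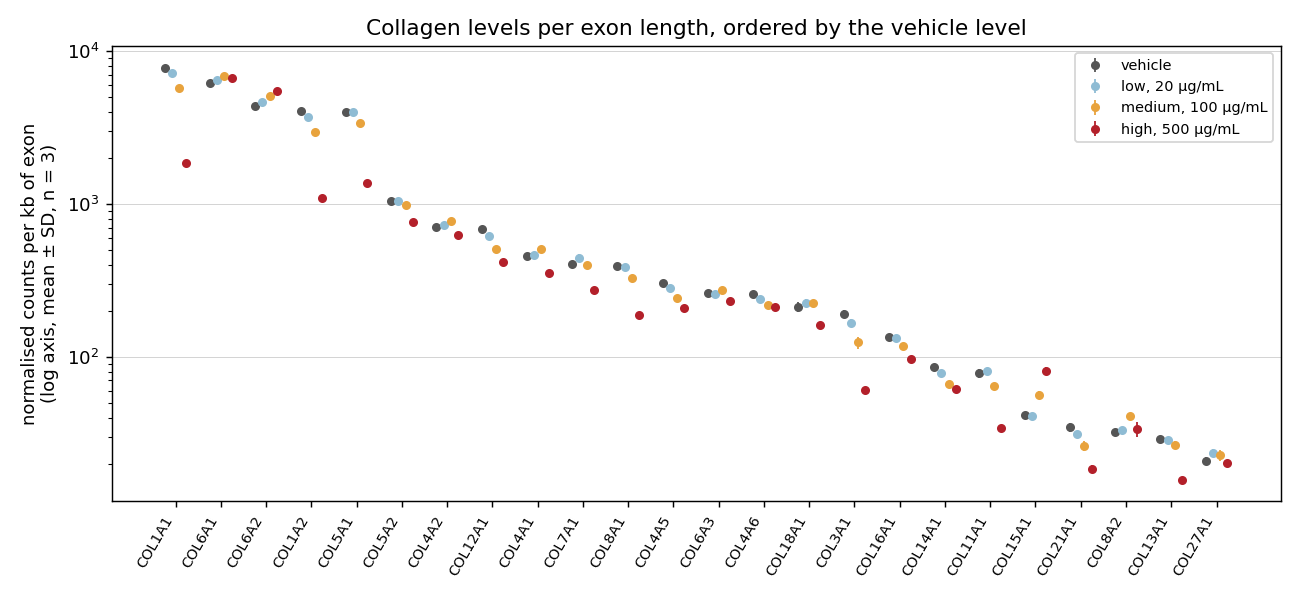
Normalised counts per kb of exon on a log axis for the 24 collagen genes, ordered by their vehicle level, with points for group means and bars for the SD over 3 libraries. COL1A1 falls from 7696 to 1838 between vehicle and high dose, while COL6A1 stays between 6137 and 6870.

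Chains that assemble into one collagen type did not always move together. The ratio of COL5A1 to COL5A2 per kb was 3.83 ± 0.0867 in vehicle, 3.84 ± 0.0365 with the low, 3.42 ± 0.0774 with the medium and 1.80 ± 0.0566 with the high dose. COL1A1 to COL1A2 was 1.90 ± 0.0578 in vehicle, 1.95 ± 0.0217 with the low, 1.97 ± 0.0508 with the medium and 1.69 ± 0.0248 with the high dose. The ratio of COL4A1 to COL4A2 went from 0.639 ± 0.0120 to 0.570 ± 0.0138 between vehicle and high dose, and that of COL4A5 to COL4A6 from 1.18 ± 0.0594 to 0.978 ± 0.0346. Within type VI, COL6A1 to COL6A2 went from 1.41 ± 0.0324 to 1.22 ± 0.0318 and COL6A3 to COL6A1 from 0.0425 ± 0.00211 to 0.0347 ± 0.00265. In each of the 6 pairs the high dose libraries lay below all vehicle libraries. A two-sided exact permutation test gave p = 0.1 for each pair, which is the smallest value that 3 against 3 libraries allow, and 0.1 after adjustment over the 6. The size of a ratio depends on the gene lengths used, and with the longest coding transcript the COL1A1 to COL1A2 ratio was 1.36 in vehicle and 1.21 at the high dose.

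**Figure D4:**
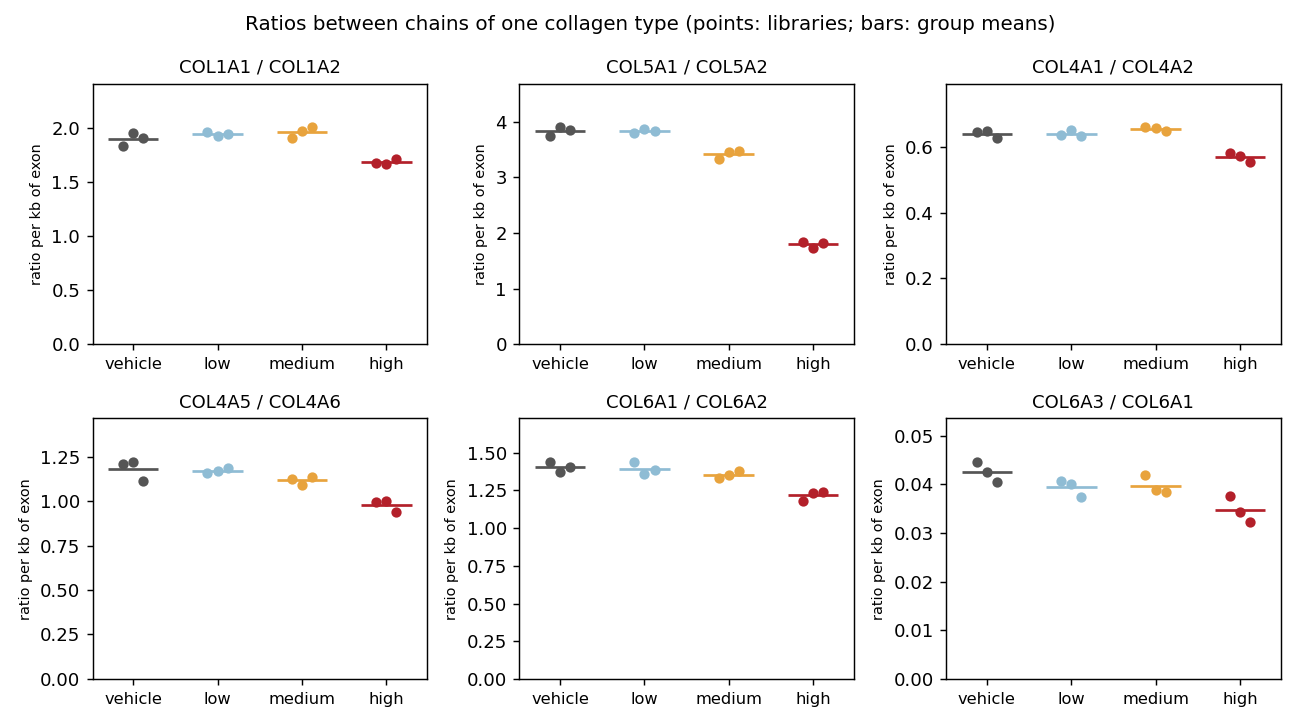
Ratios per kb between chains of the same collagen type, with 1 point per library, a bar for each group mean and the y axis starting at 0. The COL5A1 to COL5A2 ratio falls from 3.83 in vehicle to 1.80 at the high dose, and the other 5 ratios fall by less.

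Genes that make, move, process, bind or regulate collagen were read from the same fit in 7 lists of 103 genes. At the high dose 99 had an adjusted p and 28 were DEGs, 11 higher and 17 lower, against the same background of 18.2%. Procollagen folding and modification had 2 DEGs among 19 tested. SERPINH1, the collagen chaperone HSP47, was lower, from 10295 ± 226 to 6649 ± 145 normalised counts (log2 fold change -0.63, adjusted p = 1.47e-116). TMEM38B, an ion channel of the endoplasmic reticulum, was higher (0.69, adjusted p = 3.24e-29). The prolyl hydroxylase subunit gene P4HA1 (-0.49, adjusted p = 1.39e-34) and the lysyl hydroxylase gene PLOD2 (-0.41, adjusted p = 5.69e-26) were lower without reaching the fold threshold. Other genes of the list rose under that threshold, among them P4HB (0.27, adjusted p = 2.76e-35) and P4HA2 (0.27, adjusted p = 1.28e-09), named after their values were seen. By adjusted p alone 7 of the 19 were higher and 6 lower, against 23.9% and 22.6% of all genes tested. The list's median log2 fold change was -0.04, and its summed normalised counts were 111401 in vehicle and 113524 at the high dose.

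Procollagen export had 4 DEGs among 11 tested, all higher, and a median of 0.31. SAR1A, which encodes a coat GTPase, was lower at -0.31 on the log2 scale (adjusted p = 1.48e-12), under the fold threshold, and was named after its values were seen. MIA2, which encodes a partner of TANGO1 at exit sites of the endoplasmic reticulum, rose from 790.5 ± 37.9 to 2043 ± 94.8 normalised counts (1.37 on the log2 scale, adjusted p = 2.09e-106). MIA3, which encodes TANGO1 itself, the receptor that loads procollagen into carriers, rose by 0.62 (adjusted p = 4.79e-61). KLHL12, an adaptor for the ubiquitin ligase that enlarges these carriers, rose by 0.65 (adjusted p = 1.47e-15) and PREB, which activates the coat GTPase, by 0.63 (adjusted p = 1.97e-31).

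Propeptide cleavage and crosslinking had 5 DEGs among 12 tested, all lower, and a median of -0.30. TLL1, a procollagen C-proteinase, had a log2 fold change of -1.56 (adjusted p = 5.43e-38). ADAMTS2, the N-proteinase of type I procollagen, had -1.21 (adjusted p = 3.44e-150) and the lysyl oxidase relative LOXL1 had -1.02 (adjusted p = 1.4e-29). LOX itself was higher by 0.40 (adjusted p = 2.4e-28), under the fold threshold. Among collagen receptors and uptake genes 3 of 9 tested were DEGs, all higher, with a median of -0.04. The collagen-activated kinase DDR2 was 2-fold higher (1.00 on the log2 scale, adjusted p = 9.21e-221) and ITGA2, an integrin chain for collagen, was higher by 0.70 (adjusted p = 1.38e-136). ITGA11, another such chain, had -0.04 (adjusted p = 0.388).

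Fibril-associated proteoglycans and glycoproteins had 4 DEGs among 14 tested, all lower, with a median of -0.39. THBS1, the matrix glycoprotein thrombospondin-1, was 3.84-fold lower (-1.94 on the log2 scale, adjusted p below the smallest number DESeq2 can write). THBS2 had -0.78 (adjusted p = 8.74e-91) and the fibril proteoglycan gene LUM -0.59 (adjusted p = 4.51e-13). Without vehicle replicate 1 LUM was at -0.55 and without high replicate 3 at -0.56, both short of the fold threshold. SPARC, which binds collagen, was lower, at -0.37 on the log2 scale (adjusted p = 2.67e-61), under the fold threshold, and fibronectin (FN1) had -0.01 (adjusted p = 0.829). Regulators of collagen transcription had 6 DEGs among 18 tested, 5 lower and 1 higher, with a median of -0.33. The growth factor gene TGFB3 went from 418 ± 28.1 to 53.8 ± 6.24 normalised counts (-2.97 on the log2 scale, adjusted p = 7.68e-88). CREB3L1, a transcription factor that acts on type I collagen in bone, had -0.81 (adjusted p = 3e-73), and the transcription factor gene CEBPB 1.46 (adjusted p = 2.55e-18). TGFB1 was lower, at -0.36 on the log2 scale (adjusted p = 1.58e-06), under the fold threshold.

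Laminins and other basement membrane proteins had 4 DEGs among 16 tested, 2 higher and 2 lower, and a median of -0.06. The laminin chain gene LAMA1 was higher (0.98, adjusted p = 2.3e-59), while LAMA5 (-1.14, adjusted p = 5.29e-141) and HSPG2, which encodes perlecan (-0.75, adjusted p = 7.31e-86), were lower. LAMB1 was lower, at -0.25 on the log2 scale (adjusted p = 1.18e-20), under the fold threshold.

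**Figure D5:**
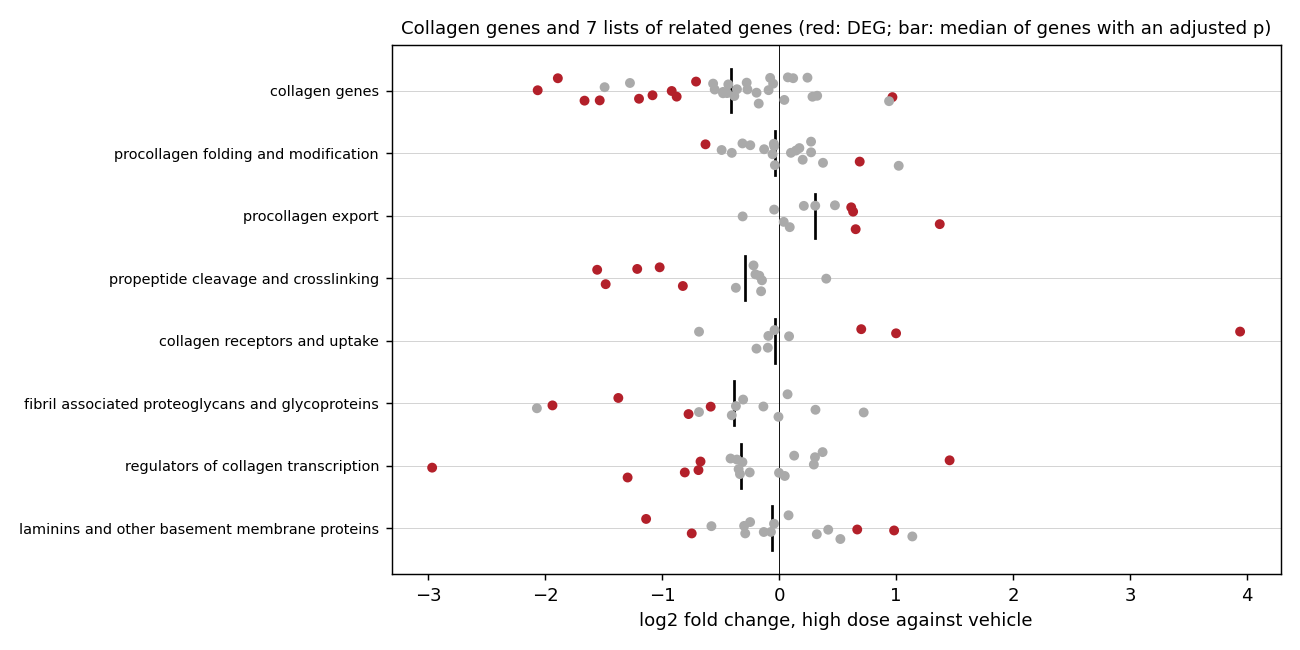
Log2 fold changes at the high dose against vehicle for collagen genes and the 7 lists, with 1 point per gene with an adjusted p, DEGs in red and a bar at the median (vertical scatter within a row is random). The median is -0.41 for collagen genes and 0.31 for procollagen export.

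Markers of other cell types were measured beside these results. All 8 mesenchymal and pericyte markers were lower at the high dose by adjusted p and 5 were DEGs, against 22.6% and 9.57% of all genes tested, among them PDGFRA (-1.40, adjusted p = 6.1e-42) and PDGFRB (-1.15, adjusted p = 1.03e-89), named after their values were seen. Their summed normalised counts lay between 19747 and 20037 in vehicle, 19516 and 20979 with the low, 19865 and 20294 with the medium, and 12706 and 12920 with the high dose. The 5 endothelial markers summed to between 45.6 and 48.9 in vehicle and 18.0 and 41.7 at the high dose. Of 5 epithelial markers EPCAM and CDH1 had group means under 2 normalised counts, and the sum, mostly KRT18, was between 4874 and 5078 in vehicle and 1809 and 1890 at the high dose. The immune marker CD3E was at 0 in all libraries, and the sum over the immune markers, mostly CD68, was between 3080 and 3252 in vehicle and 3918 and 4202 at the high dose. Astrocyte markers summed to between 6960 and 7161 in vehicle and 5026 and 5145 at the high dose, and 6 glioma markers, led by VIM and CD44, to between 142224 and 149915 and 151062 and 152730. By adjusted p 3 of 6 tested astrocyte markers were lower at the high dose and 0 were higher. Of 4 tested glioma markers 2 were lower and 2 higher, with 1 DEG in each direction. Among all genes tested 22.6% were lower and 23.9% higher by adjusted p. The part of these shifts in the collagen results was not tested.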

How the data were processed

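RNA of SW1783 cells was measured in 12 libraries, 3 in each of 4 groups taken from the sample labels. The authors made strand-specific paired-end libraries and, per the labels' processing notes, used FastQC 0.11.9, Trim Galore 0.6.5, STAR 2.7.3a and RSEM 1.3.3 on GRCh38, with Ensembl release 84 named in the methods, which give other versions of Trim Galore and STAR. The deposited values are RSEM expected counts per gene, which divide reads shared between genes and need not be whole (8.75% of values were not). They were rounded here. Whether RSEM used the strand is not given in the sources used here. Columns outside the 12 samples numbered 0.

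GENCODE v44, a later annotation, gave symbols and 1-based coordinates for 56558 of 60675 IDs (93.2%), which held 99.9% of counts. DESeq2 1.42.0 in R 4.3.3 was fitted to all genes and libraries with group as the sole term (two-sided Wald test, independent filtering at 0.05). The study's methods also name the DESeq2 Wald test and the DEG thresholds of adjusted p under 0.05 and a change beyond 1.5-fold. The other settings were chosen here. Independent filtering gave an adjusted p from a mean normalised count of 1.72 upwards for the high dose, 18.3 for the medium and 263 for the low. Library totals were 18863863 to 24200576, and the median SE of a high dose log2 fold change was 0.0699 for genes with a mean of at least 100. Replicate pairs differed by more than counting noise (chi-square per degree of freedom 1.99 to 3.55). In simulated data for the high dose comparison (25783 genes), changed genes were drawn only from those with a vehicle mean of at least 10. Of these, 83% of genes changed by 1 on the log2 scale and 97% of those changed by 2 were recovered. Among unchanged genes 6 of 21575 were called, where a call also needed the 1.5-fold change. The counts were drawn from the model that was then fitted, with the spread estimated from these libraries. These rates therefore cannot test whether that model suits the data.

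Deviations from the group mean were correlated between libraries of different groups. Same-numbered medium and low dose libraries (r 0.124 to 0.193) lay above all differently numbered ones (-0.158 to -0.00635). The numbers may therefore pair these groups, but this was not tested and no label says what they share. Same-numbered dose and vehicle libraries gave r of -0.118 to -0.00687 for low, medium and high. For high with medium, same-numbered libraries (0.0355 to 0.221) overlapped differently numbered ones (-0.150 to 0.0981). High with low also overlapped (-0.0191 to 0.135 against -0.126 to 0.0960). Level per kb used the union of exons. Named genes were every collagen gene with a mean of at least 100 and, in each other list, up to 3 DEGs with the largest change among genes with such a mean, plus 12 fixed genes. The collagen genes, lists and tests were chosen with earlier results of these data known. Promoter windows came from RefSeq (GRCh38.p14), with entries for 32 of 44 collagen genes.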

Additional observations from a re-analysis of the deposited data

How the results depend on the processing

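The counts of collagen DEGs were recomputed with edgeR 4.0.16 (quasi-likelihood test), TMM factors, size factors without mitochondrial genes, the filterByExpr filter, a filtering level of 0.1, the compared groups alone, a replicate block and without each library. Leaving out 1 library gave 10 to 10 at the high dose, 0 to 1 at the medium dose, 0 to 0 at the low dose, 7 to 7 between high and medium, 0 to 0 between medium and low, 22 to 22 in the likelihood ratio test and 27 to 28 in the pathway lists. The medium dose DEG, COL3A1, was lost (count of 0) without vehicle replicate 2 or medium replicate 3, where its fold change fell short of 1.5. By adjusted p alone the counts were 22 at the high, 19 at the medium and 2 at the low dose, 19 between high and medium, 17 between medium and low, and 75 in the pathway lists. The collagen share stayed within 1.39% to 1.41% in vehicle, 1.33% to 1.35% at the low, 1.13% to 1.16% at the medium and 0.726% to 0.734% at the high dose without 1 library. Outside mitochondrial genes it was 1.47%, 1.44%, 1.28% and 0.802% in these groups, and over a fixed total of normalised counts it was 1.33% in vehicle, 1.18% at the medium and 0.753% at the high dose. With the longest coding transcript the vehicle level of COL1A1 was 11721 per kb. Of 156 results for named genes and doses, 134 kept their call by adjusted p, without regard to the fold, under every alternative, 15 lost it and 7 gained it under at least 1, and 0 reversed; the cause was not tested. With the replicate block there were 10, 1 and 0 collagen DEGs at the high, medium and low dose, 7 between high and medium, 0 between medium and low, and 27 in the pathway lists, against 28 without the block. The block changed 7 calls by adjusted p: COL4A5 at the low dose (0.0773) and COL8A2 (0.0832) and ITGA11 (0.0823) at the medium dose were lost, and COL1A1 (0.0403), COL1A2 (2.67e-05), COL6A2 (0.0473) and COL7A1 (0.0163) at the low dose were gained. Fitted to the medium and low dose libraries alone, an alternative chosen after seeing the data, the block gave 0 DEGs. Genes with few counts, 20 of 44 under a mean of 100, limit what could be detected.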
